A study of Mus musculus with 12 samples.

Results

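Cytosolic ribosomal proteins are the protein components of the 40S and 60S subunits of the ribosome that translates nuclear-encoded messenger RNA. Their genes were taken from the deposited table as the protein-coding rows whose symbol begins with Rps or Rpl followed by a number, with the suffixes a, x, l or al allowed, together with *Rplp0*, *Rplp1*, *Rplp2* and *Rpsa*. This gave 81 genes of the 55421 in the table, 31 for the 40S and 50 for the 60S subunit. They were measured by RNA sequencing of OT-I CD8 T cells, which carry a transgenic receptor for an ovalbumin peptide. The cells had been transferred into host mice, which were infected with *Listeria monocytogenes* that makes ovalbumin (LM-OVA), and were sorted from the spleen by flow cytometry. The transferred cells were Rroid2 knockout (KO) or Rroid2 wild type (WT), and both genotypes carried the OT-I receptor and went through the infection. The 12 libraries form 6 groups of 2: KO and WT memory precursor effector cells (MPEC) on day 14, KO and WT short-lived effector cells (SLEC) on day 14, and KO and WT SLEC on day 7 of infection. Sort gates and the age of the mice are not given in the labels, and neither is whether both libraries of 1 group had separate animals as their source; p-values thus measure only the spread between these libraries.

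Ribosomal proteins are made in matched amounts and assemble on ribosomal RNA in the nucleolus before the subunits are exported to the cytoplasm. In mammals nearly all of their messenger RNAs start with a cytosine followed by a run of pyrimidines, the 5′ terminal oligopyrimidine (TOP) motif, through which mTORC1 and the RNA-binding protein LARP1 set their translation and stability. Ribosome production is one of the largest costs of T cell growth, and activated T cells expand it before they divide.

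Total counts per library ran from 7603551 to 14026594, and 14460 genes passed the filter on low counts. The 6 SLEC markers, *Klrg1*, *Cx3cr1*, *Zeb2*, *S1pr5*, *Gzma* and *Gzmb*, summed to 301 to 401 scaled CPM (counts per 1e6 counts, scaled between libraries) in the 4 MPEC libraries and to 3935 to 7244 in the 8 SLEC libraries. The 6 MPEC markers, such as *Il7r* and *Tcf7*, summed to 2102 to 2695 in MPEC and to 102 to 638 in SLEC. Markers of other cell types differed between libraries too. The 17 B cell markers summed to 800 and 3115 scaled CPM in WT SLEC on day 14 and to 25.7 to 430 in the other 10 libraries. The 10 monocyte and macrophage markers, of which 6 to 10 were detected in each library, summed to 10.6 to 19.9 in the MPEC and to 34.1 to 107 in the SLEC libraries, and the 6 plasma cell markers, some of which effector T cells also express, to 63.0 to 68.0 in the MPEC and to 107 to 143 in the SLEC libraries. The 8 erythroid markers in the table summed to at most 26.9 in 11 libraries and to 101 in the first replicate of day 7 KO SLEC, and the 8 neutrophil markers to 52.0 in WT SLEC day 14 replicate 1 and to 0 to 6.19 elsewhere. Of these lists the B cell markers alone were entered as a term in a fit, and the part of the others in the results was not tested. The shallowest library, KO SLEC day 14 replicate 2, also had the lowest share of counts on the 81 genes. The table has no gene under the name Rroid2, so the knockout itself could not be read from a symbol.

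The 81 genes together took the largest share of RNA in MPEC and the smallest in SLEC on day 14. Their summed level was 12677 and 13441 scaled CPM in KO MPEC and 13540 and 14420 in WT MPEC. On day 14 it was 6593 and 5388 in KO SLEC and 6954 and 6413 in WT SLEC, and on day 7 it was 8324 and 11513 in KO SLEC and 10817 and 8359 in WT SLEC. All MPEC libraries lay above all SLEC libraries, and all day 14 SLEC libraries lay below all day 7 SLEC libraries, and between the genotypes the libraries overlapped in SLEC of both days but not in MPEC, where WT was higher. The sum in MPEC was 2.18 times that in day 14 SLEC in KO and 2.09 times in WT. The sum in day 14 SLEC was 0.604 times that in day 7 SLEC in KO and 0.697 times in WT. These are shares of a library's RNA, so in these bulk samples fewer cells of a type and less RNA per cell cannot be told apart. As a share of all counts, the genes took 1.28% in both KO MPEC libraries (95% Wilson interval 1.27% to 1.29%) and 0.685% (0.680% to 0.691%) and 0.516% (0.511% to 0.521%) in day 14 KO SLEC; such intervals cover counting error only.

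**Figure D1:**
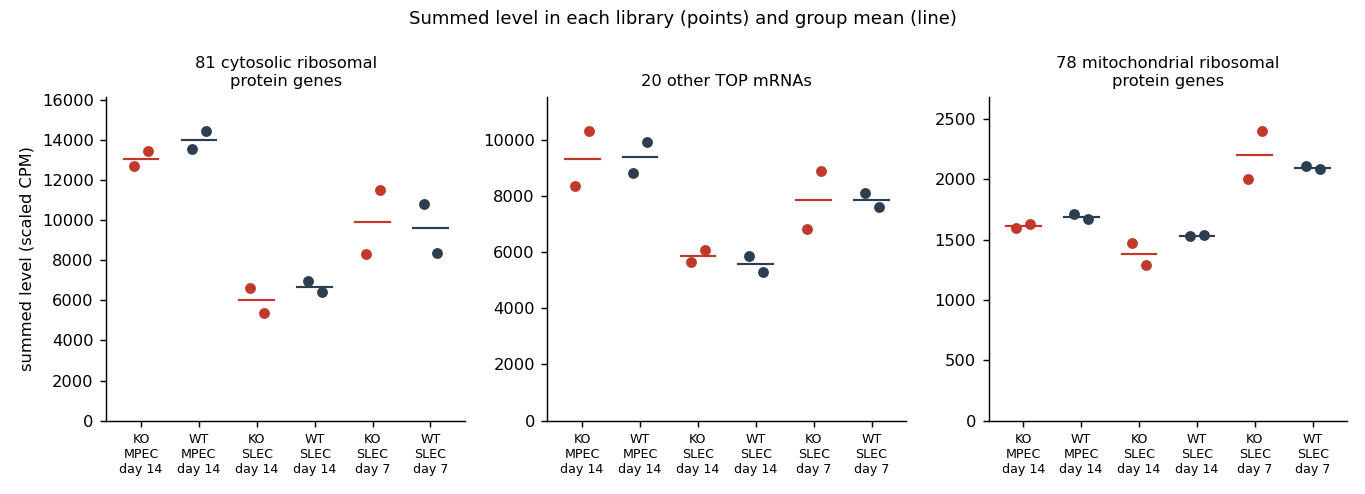
Summed level in scaled CPM of the 81 cytosolic ribosomal protein genes, of 20 other TOP messenger RNAs and of 78 mitochondrial ribosomal protein genes, with points for libraries and lines for the mean of each group of 2 (KO red, WT dark). The cytosolic genes run from 5388 to 6954 in day 14 SLEC and from 12677 to 14420 in MPEC, while the mitochondrial genes are highest in day 7 SLEC.

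The question of which genes set the MPEC apart from the SLEC of the same day was asked in each genotype separately. Of the 81 genes, 78 passed the filter, all 31 of the 40S and 47 of the 60S subunit; *Rpl39l*, *Rpl3l* and *Rpl10l* did not. In KO cells 39 of the 78 were higher in MPEC at a Benjamini-Hochberg adjusted p under 0.05 (edgeR quasi-likelihood test) and 0 were lower, against 2.9% of all genes tested called higher and 2.21% called lower (5.11% in either direction). In WT cells 34 were higher and 0 lower, against 3.66% and 4.3% of all genes. The median log2 change over the 78 was 0.98 in KO and 0.85 in WT, where the median of all genes was -0.003 and -0.005. Both MPEC libraries lay above both day 14 SLEC libraries for 66 of the 78 in KO and for 65 in WT, against 23.5% and 28.2% of all genes, and below them for 0 in either, against 23.2% and 29.1%. The genes called in both genotypes numbered 31, which is 79.5% of the KO and 91.2% of the WT calls. The difference of this change between the genotypes was called for 0 of the 78 genes, with 0 at an unadjusted p under 0.05 and 0 calls by DESeq2 and limma-voom (all genes called: 0.0%). The counts moved with single libraries. Counts over all genes in those fits are not given here, so these moves are not read as particular to the ribosomal protein genes. Without KO SLEC day 14 replicate 2 the KO count was 14, and without KO MPEC replicate 1 it was 22. Without WT SLEC day 14 replicate 2, or without WT MPEC replicate 2, the WT count was 21. With a term for the B cell markers, which were highest in day 14 WT SLEC, the WT count was 11 and the KO count was 38. Among all 14460 genes that term left 473 calls in WT, against 1151 without it, and 464 in KO, against 739. The term and the day 14 WT SLEC group are hard to tell apart in the fit, and the part of B cell RNA in the lost calls was not tested.

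**Figure D2:**
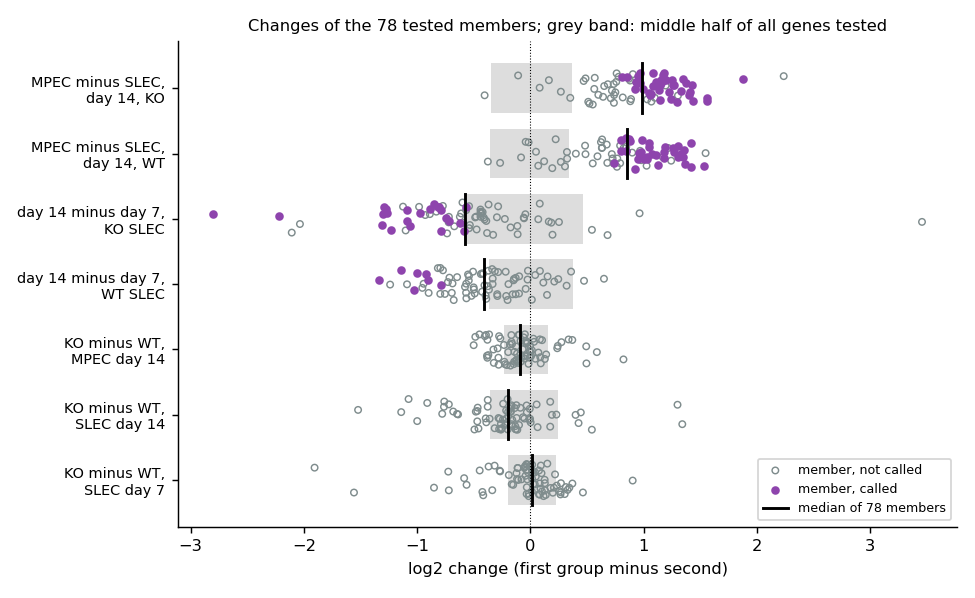
Log2 change of each of the 78 tested genes in 7 comparisons (first group minus second), with filled points called at an adjusted p under 0.05, black bars at the median of the 78 and a grey band for the interquartile range of all 14460 genes tested. The medians of 0.98 and 0.85 for MPEC minus SLEC lie outside the grey band, and the medians of -0.09, -0.20 and 0.01 for KO minus WT lie inside it.

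Of the 40S genes, 17 of 31 were higher in KO MPEC and 14 of 31 in WT MPEC, with medians of 1.08 and 0.97. *Rps20*, which encodes a protein of the head of the small subunit (chr4:3831334-3835665, minus strand, GRCm38), had 161 and 176 scaled CPM in KO MPEC, against 64.0 and 49.9 in KO SLEC of day 14. In WT it had 172 and 195 in MPEC, against 72.4 and 64.8 in SLEC. No MPEC library overlapped a SLEC library of either day, and the log2 change was 1.56 ± 0.16 in KO (SE; edgeR adjusted p = 1.27e-05) and 1.42 ± 0.16 in WT (adjusted p = 1.8e-05). *Rps19*, whose product is needed to mature the RNA of the small subunit and whose human counterpart is mutated in Diamond-Blackfan anaemia, had 237 and 235 scaled CPM in KO MPEC and 107 and 70.4 in KO SLEC. In WT the values of *Rps19* were 255 and 240 in MPEC and 103 and 91.8 in SLEC. The MPEC libraries were again all above the SLEC libraries, with log2 changes of 1.41 ± 0.18 and 1.35 ± 0.18 in KO and WT.

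*Rps2* and *Rps9*, which together with *Rps3* line the messenger RNA entry channel, rose by 1.27 ± 0.18 and 1.30 ± 0.19 in KO and by 1.19 ± 0.18 and 1.26 ± 0.18 in WT. *Rps3* rose by 1.15 ± 0.24 and 1.03 ± 0.24. *Rps6*, the substrate of the S6 kinases downstream of mTORC1, was not called: it had 12.6 and 15.0 scaled CPM in KO MPEC against 6.78 and 8.52 in KO SLEC, and 7.55 and 8.10 in WT MPEC against 5.89 and 7.40 in WT SLEC. *Rpsa*, which also serves as a laminin receptor, was called in WT (0.88 ± 0.24, adjusted p = 0.0276), where it lost its call without each of the 4 WT day 14 libraries in turn and with the B cell term; its value in KO was 0.71 ± 0.27.

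Of the 60S genes, 22 of 47 were higher in KO MPEC and 20 of 47 in WT MPEC, with medians of 0.95 and 0.80. The stalk proteins, which recruit the elongation factors to the ribosome, were all called. *Rplp1* (chr9:61913284-61914542, minus strand) had 1277 and 1215 scaled CPM in KO MPEC against 627 and 419 in KO SLEC of day 14, and 1430 and 1496 in WT MPEC against 589 and 507 in WT SLEC. *Rplp0* (chr5:115559467-115563727, plus strand) had 473 and 606 in KO MPEC against 233 and 196 in KO SLEC, and 552 and 637 in WT MPEC against 239 and 241 in WT SLEC. *Rplp2* (chr7:141447370-141451585, plus strand) had 195 and 181 in KO MPEC against 112 and 81.6 in KO SLEC, and 195 and 204 in WT MPEC against 107 and 87.1 in WT SLEC. None of these groups overlapped. The log2 changes in KO and WT were 1.25 ± 0.17 and 1.42 ± 0.17 for *Rplp1*, 1.33 ± 0.18 and 1.31 ± 0.17 for *Rplp0*, and 0.95 ± 0.18 and 1.04 ± 0.18 for *Rplp2*. The *Rplp2* call was lost in KO without KO SLEC day 14 replicate 2, and in WT with the B cell term.

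Among the other 60S genes, *Rpl22*, which mice need for the development of αβ T cells, rose by 1.26 ± 0.20 in KO and 1.18 ± 0.19 in WT, and *Rpl4*, which lines the exit tunnel, rose by 1.06 ± 0.18 and 1.08 ± 0.18. *Rpl23*, whose human product can bind MDM2, had 180 and 181 scaled CPM in KO MPEC against 77.3 and 85.5 in KO SLEC of day 14, and 178 and 165 in WT MPEC against 97.4 and 94.5 in WT SLEC. Its 8 SLEC libraries, day 7 included, lay between 77.3 and 106, below every MPEC library. *Rpl13*, *Rpl29* and *Rpl30* were called in both genotypes, with log2 changes between 1.06 and 1.56. *Rpl5* and *Rpl11*, which with 5S ribosomal RNA form the particle that binds Mdm2 when ribosome assembly is disturbed, were not called. *Rpl5* had 25.9 and 14.4 in KO MPEC against 15.4 and 13.3 in KO SLEC, with overlap. *Rpl11* had 5.24 and 5.08 in KO MPEC against 3.54 and 3.85 in KO SLEC. The WT changes were 0.32 ± 0.29 for *Rpl5* and 0.07 ± 0.37 for *Rpl11*, with overlap for both. *Rpl3* of the peptidyl transferase centre (0.60 ± 0.19 in KO and 0.49 ± 0.17 in WT), *Rpl10*, a late-joining protein needed for subunit joining (0.51 ± 0.39 and -0.27 ± 0.32), and *Rpl38*, which mice need for translation of *Hox* messenger RNAs (1.1 ± 0.53 and 0.73 ± 0.46), also did not pass the test. The smallest ribosomal protein, encoded by *Rpl41*, was called in KO (1.17 ± 0.24) but lost that call without KO SLEC day 14 replicate 1, without replicate 2 or without KO MPEC replicate 1, and had 0.77 ± 0.23 in WT.

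**Figure D3:**
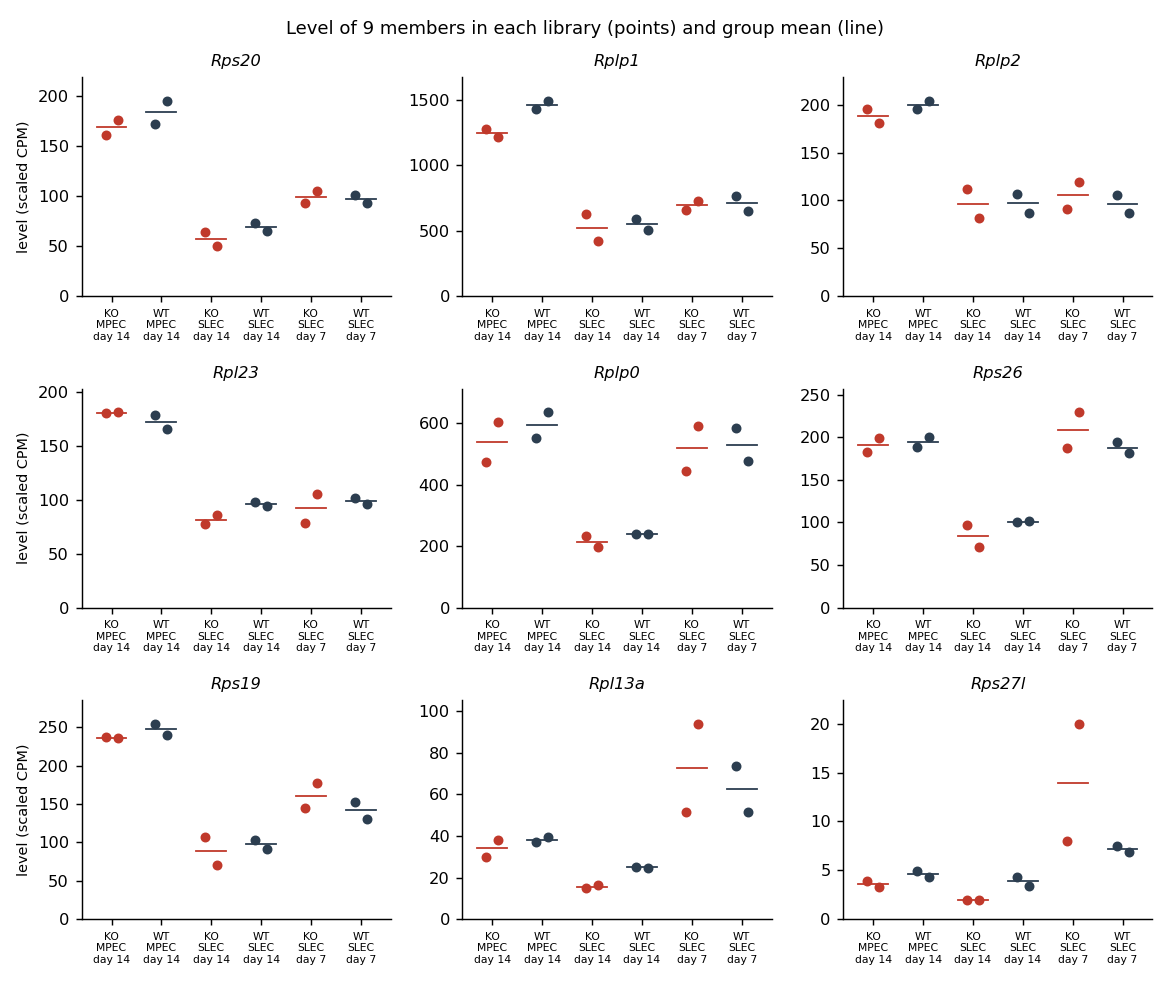
Level in scaled CPM of 9 ribosomal protein genes in each library, with lines at the mean of each group of 2 (KO red, WT dark). *Rps20*, *Rplp1*, *Rplp2* and *Rpl23* are higher in every MPEC library than in every SLEC library; *Rplp0* and *Rps26* are low in day 14 SLEC alone; *Rpl13a* and *Rps27l* are highest in day 7 SLEC.

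The starts of these genes were examined because their messenger RNAs moved together and the TOP motif begins at the first base. RefSeq promoter windows (GRCm38.p6, 250 bases before to 50 after the annotated start) were found for 61 of the 81 genes. The lines give 8 genes called in at least 1 comparison, chosen after their windows were seen to show the variety of pyrimidine runs, each with 30 bases before the annotated start and 20 from it, in the direction of transcription. Capitals mark the longest run of pyrimidines that begins with C.
Rps26 (chr10:128626487-128626536, minus): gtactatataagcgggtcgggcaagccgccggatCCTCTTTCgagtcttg
Rpl13a (chr7:45128726-45128775, minus): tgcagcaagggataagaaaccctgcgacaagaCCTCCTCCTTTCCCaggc
Rplp2 (chr7:141447621-141447670, plus): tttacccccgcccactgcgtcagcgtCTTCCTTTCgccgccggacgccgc
Rps15a (chr7:118116128-118116177, minus): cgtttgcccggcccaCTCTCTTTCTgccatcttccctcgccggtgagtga
Rps18 (chr17:33955646-33955695, minus): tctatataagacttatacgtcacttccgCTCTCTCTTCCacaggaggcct
Rpl14 (chr9:120571487-120571536, plus): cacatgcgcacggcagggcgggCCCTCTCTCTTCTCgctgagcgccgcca
Rpl35 (chr2:39005112-39005161, minus): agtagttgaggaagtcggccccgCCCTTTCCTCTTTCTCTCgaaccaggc
Rpl18 (chr7:45718041-45718090, plus): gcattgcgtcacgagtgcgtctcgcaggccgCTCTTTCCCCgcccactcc

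The runs were 8 to 18 bases long. The run spanned the annotated start in *Rplp2*, *Rps18*, *Rpl14* and *Rpl35*, began just after it in *Rps26*, *Rpl13a* and *Rpl18*, and ended before it in *Rps15a*. Within 50 bases on either side of the start, a C followed by 7 pyrimidines on the coding strand was found in 52 of 61 ribosomal protein genes (85.2%) and in 31.8% of the 9529 genes tested that had a window. CTTTCC, which lies within some of these runs, was found in 32.8% and 5.36%, and CTTTC, which it contains, in 54.1% and 12.7%. Over the whole 300 bases and both strands, CCGGAAG, a core recognised by ETS family factors, was found in 41.0% and 21.5%, and AAGATGG, a core recognised by YY1, in 14.8% and 8.78%. GGGCGG, the core recognised by Sp1, was found in 60.7% and 67.7%, and TATAAA in 9.84% and 8.58%. These are matches of letters and say nothing of binding or of the start used in these cells.

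In SLEC, ribosomal protein genes were lower on day 14 than on day 7 where they were called. In KO SLEC 23 of 78 fell and 0 rose, against 9.5% of all genes called lower and 7.7% called higher (17.2% in either direction). In WT SLEC 7 fell and 0 rose, against 5.25% and 4.69% of all genes (9.94% in either direction), so the WT share of 7 in 78 was nearer to that of all genes. The median log2 change was -0.57 in KO and -0.41 in WT. Both day 14 libraries lay below both day 7 libraries for 53 of 78 in KO and 41 in WT, against 29.0% and 24.3% of all genes, and above them for 3 and 1, against 28.4% and 27.1%. The genes called in both genotypes numbered 6, among them *Rpl13a*, *Rpl32*, *Rpl41*, *Rplp0* and *Rps26*, which is 26.1% of the KO and 85.7% of the WT calls. The difference of this change between the genotypes was called for 0 of the 78 (edgeR; 2 at an unadjusted p under 0.05, 0 calls by DESeq2 and limma-voom; all genes called: 0.00692%). The day 14 groups also take part in the MPEC comparisons, so the 2 sets of changes are not independent.

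*Rplp0* fell to 233 and 196 scaled CPM in KO SLEC of day 14, against 446 and 592 on day 7, and to 239 and 241 in WT SLEC of day 14, against 585 and 477. *Rps26*, at the exit side of the messenger RNA channel (chr10:128624534-128626747, minus strand), fell to 97.1 and 71.5 in KO, against 188 and 230, and to 100 and 102 in WT, against 194 and 182. Neither gene had overlapping groups. The log2 changes were -1.27 ± 0.18 in KO and -1.15 ± 0.17 in WT for *Rplp0*, and -1.30 ± 0.16 and -0.90 ± 0.16 for *Rps26*. *Rpl13a*, whose human product can leave the ribosome to silence messenger RNAs of inflammation (chr7:45125558-45128761, minus strand), fell to 14.9 and 16.2 in KO, against 51.7 and 94.1, and to 25.2 and 24.4 in WT, against 73.6 and 51.5. Its log2 changes were -2.22 ± 0.28 (adjusted p = 9.11e-05) and -1.33 ± 0.25 (adjusted p = 0.00281). These 3 genes kept their calls in both genotypes without any 1 library. With the B cell term, which left 0 of the 7 WT calls, the WT values were -0.85 for *Rplp0*, -0.95 for *Rps26* and -0.51 for *Rpl13a*. With it 24 of the 78 were called in KO. Among all genes the WT calls were 320 with the term, against 1437 without it. The B cell markers summed to 800 and 3115 scaled CPM in day 14 WT SLEC and to 25.7 to 430 elsewhere. The term and that group are thus hard to tell apart in the fit, and the part of B cell RNA in the lost calls was not tested.

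*Rps27l*, the paralogue of *Rps27* and a target of p53 (chr9:66946086-66949516, plus strand), fell to 1.92 and 1.92 scaled CPM in KO SLEC of day 14, against 7.96 and 20 on day 7, a log2 change of -2.80 ± 0.54 (adjusted p = 0.0018). In WT SLEC it had 4.34 and 3.42 on day 14 and 7.47 and 6.91 on day 7, without overlap but not called (-0.90 ± 0.45, adjusted p = 0.236). Its partner *Rps27* had 12.5 and 11.1 on day 14 against 9.07 and 7.04 on day 7 in KO, and was not called. *Rpsa* was called in WT (-0.79 ± 0.24, adjusted p = 0.0418), lost that call in 9 of 12 single omissions and had 0.17 with the B cell term. Single libraries and settings moved these counts as well. Counts over all genes in those fits are not given here, so the moves are not read as particular to the ribosomal protein genes. The KO count was 6 without KO SLEC day 14 replicate 2 and 10 without KO SLEC day 7 replicate 2. The WT count was 18 without WT SLEC day 7 replicate 2, 4 without WT SLEC day 7 replicate 1 and 3 without WT SLEC day 14 replicate 2; it was 15 by DESeq2, 15 with no filter on low counts and 4 when only the compared groups were fitted.

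The order of all libraries was read gene by gene. All 4 day 14 SLEC libraries lay below the other 8 for 31 of 78 ribosomal protein genes, against 2.21% of all genes tested. All 4 MPEC lay above all 4 day 14 SLEC libraries for 55 (10.4% of all genes) and below them for 0 (9.05%), and above all 8 SLEC libraries for 27 (5.77%), among them *Rps20*, *Rplp1*, *Rplp2*, *Rpl22* and *Rpl23*. All 4 day 14 SLEC lay below all 4 day 7 SLEC libraries for 32 (12.6%), and above them for 0 (11.1%). The 4 day 7 SLEC libraries lay above the other 8 for 2 genes (8.36% of all genes), *Rpl13a* and *Rps27l*. *Rpl13a* had 30 and 38.1 in KO MPEC and 36.9 and 39.7 in WT MPEC, under the lowest day 7 SLEC value of 51.5. *Rps27l* had 3.9 and 3.26 in KO MPEC and 4.91 and 4.33 in WT MPEC, under the lowest day 7 value of 6.91. The group with the highest mean was WT MPEC for 42 genes and KO MPEC for 20, and the group with the lowest was KO SLEC of day 14 for 60. The same counts over all genes are not given here, and KO SLEC of day 14 includes the shallowest library. These counts are thus not read as a difference between KO and WT, where none of the 78 genes was called. MPEC of day 7 were not among the samples, so day and population cannot be told apart between MPEC and day 7 SLEC.

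Between the genotypes, no ribosomal protein gene was called. KO minus WT had 0 calls among the 78 in MPEC of day 14, in SLEC of day 14, in SLEC of day 7 and as the mean of the 3, against 0.0138%, 0.539%, 0.0277% and 0.083% of all genes in either direction, and DESeq2 and limma-voom also made 0 calls in each. By direction, 0.0692% of all genes were called higher and 0.47% lower in day 14 SLEC, and 0.0415% each way in the mean. At an unadjusted p under 0.05 there were 2 in MPEC, 4 in day 14 SLEC, 2 in day 7 SLEC and 4 in the mean. The median log2 changes were -0.09 in MPEC, -0.20 in day 14 SLEC and 0.01 in day 7 SLEC. In day 14 SLEC both KO libraries lay below both WT libraries for 31 of the 78 genes (25.7% of all genes) and above them for 8 (21.9%). In MPEC both KO libraries lay below for 26 (15.9%) and above for 6 (14.2%), and in day 7 SLEC below for 6 (12.2%) and above for 3 (11.2%). A p that misses the threshold does not show that the genotypes are alike.

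The smallest unadjusted p in day 14 SLEC belonged to *Rpl9*, *Rps23* and *Rpl13a*. *Rpl9* had 7.08 and 8.11 scaled CPM in KO and 11.9 and 16.3 in WT (-0.91 ± 0.37, edgeR adjusted p = 0.313). *Rps23* of the decoding centre ran the other way, with 5.26 and 3.99 in KO and 1.77 and 2.03 in WT (1.30 ± 0.54, adjusted p = 0.315). In the B cell markers the same groups had 69.9 and 28.4 scaled CPM in KO and 800 and 3115 in WT, and with the B cell term the differences were -0.77 for *Rpl9*, 1.38 for *Rps23* and -1.51 for *Rpl13a*, the last being -0.68 ± 0.30 without it, none of them called. In MPEC the smallest p belonged to *Rps6*, with 12.6 and 15.0 in KO and 7.55 and 8.10 in WT (0.82 ± 0.38), followed by *Rps18* (-0.40 ± 0.19) and *Rpl27* (0.59 ± 0.35). In day 7 SLEC they included *Rps27l* (0.90 ± 0.38) and *Rpl36* (-1.56 ± 0.70), each with an adjusted p of 1. In the mean of the 3 populations they belonged to *Rpl9* (-0.52 ± 0.20), *Rps18* (-0.25 ± 0.12) and *Rps12* (-0.47 ± 0.22).

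Levels per length differed widely between the genes. Per kilobase of exon the mean over the 12 libraries ran from 0.606 RPKM for *Rpl24* to 1730 for *Rplp1*, with *Rpl8*, near the peptidyl transferase centre, at 842, *Rpl4* at 609 and *Rplp0* at 265. The 5 genes with the most counts, *Rpl4*, *Rpl8*, *Rps3*, *Rplp1* and *Rplp0*, held 48.3% of all ribosomal protein counts. Without them, 34 of 73 were called higher in KO MPEC and 29 of 73 in WT MPEC. Ribosomal protein genes have many processed copies in the mouse genome, and 78 of the 81 share at least 1 stretch of 50 bases of their principal coding transcript with a transcript of another annotated gene (GENCODE M21). The median share was 50.7%. The 37 tested genes sharing under 50% had a median of 42.7 RPKM, against 6.01 for the 41 sharing 50% or more, and the Spearman correlation across genes, which are not independent and differ in length and copies, was -0.52. The labels do not say how reads with several positions were counted, so low values of genes such as *Rpl24*, *Rpl36*, *Rps16* and *Rpl23a* are uncertain. Of these, *Rps16* shares 41.6%. The levels and changes given for *Rpl5* (93.8% shared), *Rpl9* (93.3%), *Rpl3* (85.6%), *Rpl10* (85.4%) and *Rps6* (84.6%) are uncertain for the same reason. The same limit holds for *Rps27* (98.6%) and *Rps12* (83.6%). It also holds for called genes such as *Rps18* (86.7%), *Rpl13* (80.3%), *Rpl30* (79.2%), *Rps4x* (72.2%) and *Rps2* (71.3%). Among genes sharing under 50%, 25 of 37 were called higher in KO MPEC and 23 of 37 in WT MPEC, and among the others 14 and 11 of 41. The summed level in MPEC was 2.20 times that in day 14 SLEC in KO and 2.08 times in WT for genes sharing under 50%. For the others it was 2.10 and 2.12 times. Across genes, the Spearman correlation of the share with the change was -0.39 in KO and -0.43 in WT. The 47 tested genes named as ribosomal protein pseudogenes had medians of 1.07 in KO and 1.02 in WT in the same comparison. Of them 2 and 3 were called higher, against 2.9% and 3.66% of all genes, and 0 and 1 lower, against 2.21% and 4.3%.

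**Figure D4:**
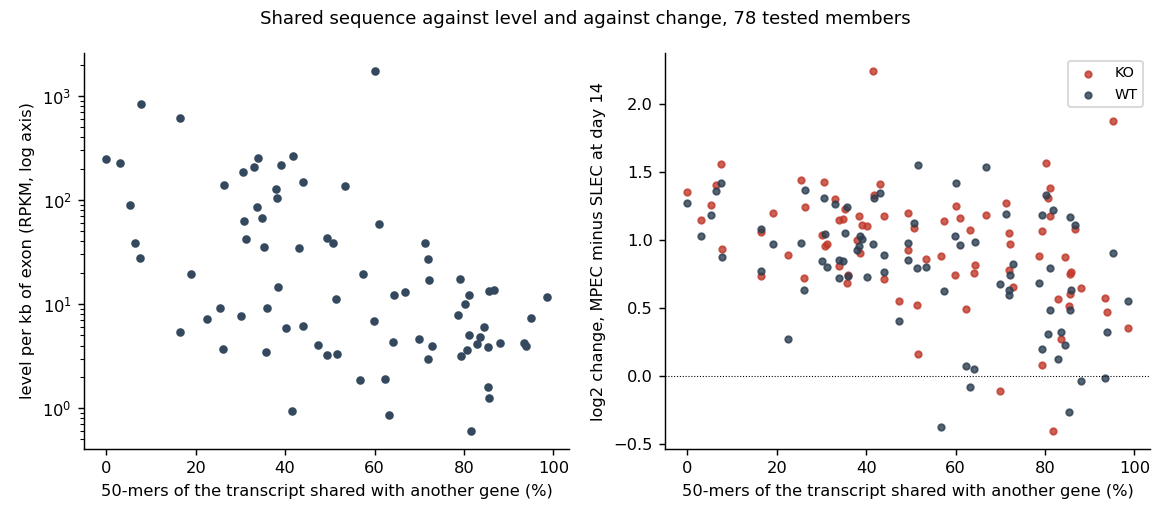
Left, level per kilobase of exon (RPKM, log axis) against the percent of 50-base stretches of the transcript shared with another gene, for the 78 tested genes; right, log2 change of MPEC minus SLEC at day 14 against the same share, KO in red and WT in dark. Genes sharing under 50% have a median of 42.7 RPKM and those sharing 50% or more a median of 6.01, and all 37 genes sharing under 50% lie above 0 in both genotypes.

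The tissue-restricted paralogues were nearly absent. *Rpl39l* and *Rpl10l*, known from testis, had 26 and 2 counts over all libraries, and *Rpl3l*, known from muscle, had 2; of the *Rpl39l* counts, 17 came from WT SLEC day 7 replicate 1. Their partners were measured: *Rpl39* had 10.2 and 9.01 scaled CPM in KO MPEC against 6.48 and 4.81 in KO SLEC of day 14, *Rpl10* had 8.21 and 7.57 in KO MPEC against 5.77 and 5.22 in KO SLEC, and *Rpl3* had 47.8 and 51.3 in KO MPEC against 36.9 and 27.9 in KO SLEC. None of these 3 was called in either genotype. The WT changes were 0.77 ± 0.38 for *Rpl39*, 0.49 ± 0.17 for *Rpl3* and, in the other direction and with overlap, -0.27 ± 0.32 for *Rpl10*. *Rps4x*, the X-linked small-subunit gene, rose in MPEC by 0.97 ± 0.22 in KO and 0.74 ± 0.20 in WT; both calls were lost without a single library of the compared groups, in KO without KO SLEC day 14 replicate 1 or 2 or KO MPEC replicate 1, and in WT without any of its 4. *Rpl36al* had 0.506 and 0.137 in KO SLEC of day 14 against 1.41 and 1.53 on day 7, and was not called.

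Across the 12 libraries most of the genes followed each other. The correlation of a gene's log2 CPM with the mean of the other tested members had a median of 0.83 and was above 0.5 for 64 of 78; the points share libraries and group structure, and it is given as a description. It was 0.34 for *Rps27l* and -0.07 for *Rpl24*. Among 8148 other genes whose log2 CPM averaged at least 3, the 10 most like the mean of the members were *Mrpl52* (r = 0.97), *Eef1b2* (0.96), *Rack1* (0.94), *AC117232.1*, *Gas5*, *Vrk1*, *Gm6252*, *Parp12*, *Tnip1* and *Cd5* (0.90), over 12 libraries.

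Other genes of protein synthesis, in lists chosen with earlier results of these data known, were read in the same comparisons. Of 20 other TOP messenger RNAs, 7 were higher in KO MPEC than in day 14 KO SLEC and 9 in WT, against 2.9% and 3.66% of all genes. In both genotypes 0 were lower, against 2.21% and 4.3%, and the medians were 0.62. *Eef1b2*, a subunit of the exchange factor of elongation factor 1, had 491 and 493 scaled CPM in KO MPEC against 202 and 159 in KO SLEC, and 514 and 517 in WT MPEC against 209 and 200 in WT SLEC (1.44 ± 0.17 and 1.33 ± 0.17). *Rack1*, a scaffold on the 40S subunit, rose by 1.13 ± 0.18 and 1.05 ± 0.18, and *Eef1a1*, *Eef1g*, *Npm1*, *Eif3e* and *Eif3f* were also called in both genotypes. From day 7 to day 14 in SLEC, 8 of the 20 fell in KO and 9 in WT, against 9.5% and 5.25% of all genes. In both genotypes 0 rose, against 7.7% and 4.69%, and the medians were -0.50 and -0.55. *Btf3*, a subunit of the nascent polypeptide-associated complex, fell by 1.22 in KO and 1.26 in WT on the log2 scale. Of the 40S genes outside the selection rule, *Rps3a1* (0.85 ± 0.23 in KO and 0.55 ± 0.22 in WT) was called in KO, and the ubiquitin-like fusion *Fau* (0.17 ± 0.61 and -0.38 ± 0.55) was not called.

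The mitochondrial ribosomal proteins, which serve a separate ribosome and carry no TOP motif as a class, had another order of groups. Of 77 tested, 3 were higher in KO MPEC than in day 14 KO SLEC and 1 in WT, against 2.9% and 3.66% of all genes. The medians were 0.21 and 0.20. Of the 78 cytosolic genes, 39 and 34 were called higher. From day 7 to day 14 in SLEC, 28 of the mitochondrial genes fell in KO and 12 in WT, against 9.5% and 5.25% of all genes. The medians were -0.60 and -0.45. The summed level of the mitochondrial genes was 1599 and 1632 scaled CPM in KO MPEC and 1713 and 1668 in WT MPEC. It was 1471 and 1285 in day 14 KO SLEC and 1532 and 1533 in day 14 WT SLEC. On day 7 it was 2003 and 2396 in KO SLEC and 2107 and 2084 in WT SLEC. All day 7 SLEC libraries were above all others, whereas the cytosolic sum was highest in MPEC. This order is that of the sum, and *Mrpl52* of this family was the gene most like the cytosolic members (r = 0.97, 8148 genes compared). The difference between the 2 families was not tested.

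Regulators of ribosome production moved gene by gene. Of 22 genes of the mTORC1 pathway, *Sesn3*, a sestrin that restrains mTORC1, was the only call between MPEC and day 14 SLEC, with 166 and 180 scaled CPM in KO MPEC against 76.9 and 84.4 in KO SLEC, and 159 and 158 in WT MPEC against 93.3 and 109 in WT SLEC (1.1 ± 0.15 and 0.65 ± 0.15). Of all genes, 5.11% in KO and 7.96% in WT were called in either direction between MPEC and day 14 SLEC. From day 7 to day 14 in SLEC, 5 of the 22 rose and 2 fell in KO, against 7.7% and 9.5% of all genes. In WT 2 rose and 0 fell, against 4.69% and 5.25%. *Pdcd4*, an inhibitor of the eIF4A helicase, rose by 1.08 ± 0.18 in KO. *Larp1* itself was not called in these comparisons (0.48 ± 0.15 in KO and 0.38 ± 0.15 in WT for MPEC minus SLEC). Of 12 genes of ribosomal RNA transcription, 3 rose and 0 fell in MPEC in each genotype. Of all genes, 2.9% rose and 2.21% fell in KO, and 3.66% rose and 4.3% fell in WT. *Myc*, which drives ribosome biogenesis, had 99.2 and 92.8 scaled CPM in KO MPEC against 5.87 and 5.08 in KO SLEC, and 87.6 and 88.3 in WT MPEC against 6.70 and 19.0 in WT SLEC (4.12 ± 0.45 and 2.75 ± 0.37). *Polr1a*, the largest subunit of RNA polymerase I, rose by 0.62 ± 0.15 in KO and 0.63 ± 0.14 in WT. *Taf1d* fell by 2.01 and 1.52 on the log2 scale in SLEC from day 7 to day 14 in KO and WT.

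Of the 6 genes of 5S particle and p53 surveillance, *Trp53* was higher in KO MPEC (0.75 ± 0.20) and *Mdm2* lower in WT MPEC (-0.54 ± 0.16), each in that genotype alone by the test, while the difference between genotypes was not called. Of 11 genes of ribosome rescue and quality control, 0 were called in KO and *Zfp598*, the sensor of collided ribosomes, was lower in WT MPEC (-0.64 ± 0.16). Between MPEC and day 14 SLEC, 5.11% of all genes were called in either direction in KO and 7.96% in WT. From day 7 to day 14 in SLEC, *Eif2ak4*, the kinase that senses uncharged transfer RNA, rose by 0.95 ± 0.23 in KO and 0.68 ± 0.21 in WT.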

How the data were processed

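The deposited table holds raw counts of reads per gene for the 12 libraries. Per the labels, libraries were made from RNA of sorted cells with a stranded SMART-Seq kit. Per the submitters' processing notes, the authors used bcl2fastq and STAR 2.6.1a with GRCm38; the counting program, its annotation, its strand setting and its treatment of reads with several positions are not stated there. Without them, reads of a ribosomal protein gene and of its processed copies or of small nucleolar RNAs inside it cannot be told apart with certainty.

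Groups were taken from the labels and no library was left out. The tests used edgeR 4.0.16 under R 4.3.3: filterByExpr over the 6 groups kept 14460 of 55421 genes, holding at least 99.7% of each library's counts, and trimmed mean of M-values factors scaled the libraries. All 12 libraries entered 1 robust quasi-likelihood fit with a coefficient for each group, with 6 residual degrees of freedom and 11.9 prior ones at the median gene. The 10 comparisons were two-sided, with Benjamini-Hochberg adjustment over all genes tested and calls at an adjusted p under 0.05. Log2 changes carry a standard error (SE), taken as the absolute log2 change divided by the square root of the quasi-likelihood F statistic. Log2 CPM used a prior count of 2. RPKM used the length of merged exons in GENCODE M21, in which 99.7% of the identifiers were found. Sequences come from RefSeq windows of GRCm38.p6. Alternatives were DESeq2 1.42.0 (Wald test, and its size factors in edgeR), limma-voom (limma 3.58.1), 2 other filters, no mitochondrial genes, scaling without the ribosomal protein genes, a replicate block, the compared groups alone, each library left out, and a B cell RNA term (the log2 of the summed B cell markers), the last chosen after seeing the data. The scripts were tested on simulated counts. Within each group the 2 libraries differed beyond counting error (chi-square per degree of freedom 12.5 to 69.1 over genes), so none was counted as a copy.

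In each comparison the text names up to 12 called genes of each direction with the smallest p, or the 3 with the smallest p where fewer than 3 were called, plus 20 followed genes such as *Rps6*, *Rpsa*, *Rpl5* and the paralogues, and from each other list the called genes and the 2 with the smallest p, of which a part is printed. *Rpl24*, *Rps3*, *Rps16* and *Rpl23a* and the printed sequences were picked with their values in view. The members and the lists were chosen with earlier results of these data known. A few genes are counted in the totals but not reported here by name.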

Additional observations from a re-analysis of the deposited data

How the results depend on the processing

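No ribosomal protein gene was called between KO and WT, or when that effect was compared between days or populations, under any alternative that was run; for the mean of the 3 populations no fit on the compared groups alone was made. For MPEC minus SLEC at day 14 the counts of called genes were 34 to 44 in KO and 32 to 48 in WT under the planned settings that kept all libraries, and for day 14 minus day 7 in KO SLEC they were 18 to 31. The WT count for MPEC minus SLEC was 11 under the B cell RNA term, which was added after seeing the data. For day 14 minus day 7 in WT SLEC the 7 calls became 15 with the DESeq2 Wald test, 15 with no filter on low counts, 4 with the compared groups only and 0 with the B cell RNA term, and the *Rpsa* value there turned to 0.17 (adjusted p = 0.93). Leaving out 1 library at a time gave 14 to 40 calls for MPEC minus SLEC in KO, 21 to 42 in WT, 6 to 28 for day 14 minus day 7 in KO SLEC and 3 to 18 in WT SLEC, and 0 for each KO effect; where this leaves a group with 1 library, that library is assumed to vary like the other groups. The cause of these moves was not tested, and counts over all genes in the same fits are not given beside them. The labels share replicate numbers between groups but state no pairing, and same-numbered libraries deviated together with r of -0.133 to 0.117 over the 15 pairs of groups. With a replicate block the counts were 36 and 37 for MPEC minus SLEC in KO and WT, and 23 and 8 for day 14 minus day 7, and 0 for each KO effect. Of 51 called values of named genes, each with every library left out in turn, 41 of 612 fits lost the call and 571 did not, and the B cell RNA term ended 13 calls with the same sign, besides that of *Rpsa*. The median over the 78 genes stayed between 0.87 and 1.15 for MPEC minus SLEC in KO, 0.65 and 0.94 in WT, -0.75 and -0.44 for day 14 minus day 7 in KO SLEC and -0.63 and -0.03 in WT SLEC. For KO minus WT it ran from -0.17 to 0.29 in day 7 SLEC, from -0.61 to -0.06 in day 14 SLEC and from -0.18 to -0.07 in MPEC. For the mean of the 3 populations it ran from -0.21 to -0.01. Depth limits the precision of genes with few counts: for MPEC minus SLEC in KO the SE was 1.36 for *Rpl36al* and 0.16 for *Rps20*.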
